A study of Homo sapiens with 6 samples.

Results

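The genes described here are 9 genes of the plasminogen system and of matrix proteolysis: SERPINB5, PLAU, PLAUR, PLAT, MMP1, MMP2, MMP14, TIMP1 and TIMP2. They were listed by name, with no threshold on their values but with earlier results of these data known, and each was found once by its symbol among the 27942 genes of the deposited count table. RNA from HCT116, an established human colorectal carcinoma cell line grown in culture, was sequenced as polyadenylated RNA. The NT group held 3 libraries of untreated cells, and the OXA group held 3 libraries of cells exposed to 0.5 µM oxaliplatin for 24 h. Oxaliplatin is a platinum drug that forms DNA adducts, and both groups were the same line in the same medium, so the comparison concerns 1 cell line, 1 dose and 1 time.

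Plasminogen is an inactive blood-borne protease precursor that is cut to plasmin by urokinase, the product of PLAU, or by tissue plasminogen activator, the product of PLAT. Urokinase acts at the cell surface when bound to its receptor, the product of PLAUR. Plasmin degrades fibrin and matrix proteins and can activate some matrix metalloproteinases. That family includes the collagenase MMP1, the gelatinase MMP2 and the membrane-anchored MMP14. TIMP1 and TIMP2 encode inhibitors of matrix metalloproteinases, which do not inhibit every enzyme of the family equally. SERPINB5 encodes maspin, a clade B serpin of epithelial cells that is known as a p53-responsive gene and, unlike most serpins, does not act as a classical protease inhibitor. In tumours of the colon the urokinase system is studied for its part in invasion.

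Promoter sequence of RefSeq on GRCh38.p14 was found for 5 of the 9 genes (SERPINB5, PLAU, PLAUR, MMP14 and TIMP1), and the 250 bases before each start were searched on both strands. The motifs were the AP-1 motif TGANTCA, the TATA box TATAAA, the GC box GGGCGG, the TEAD motif GGAATG and the p53 half-site RRRCWWGYYY. In these N is any base, R is A or G, W is A or T, and Y is C or T. Only exact matches were counted. AP-1 is the FOS and JUN transcription factor complex, and TEAD factors carry YAP and TAZ to DNA. Among 27305 promoters of the same length, 6.6% held the AP-1 motif, 11.1% the TATA box, 42.3% the GC box, 11.9% the TEAD motif and 5.53% the p53 half-site. The window of SERPINB5 is printed whole, since this gene had the largest change of the 9 and no base of the window lies in an annotated exon. For PLAUR the 30 bases around its AP-1 motif are printed, and that window lies inside annotated exons. Capitals mark the AP-1 motif in both and the overlapping GC boxes in SERPINB5.
SERPINB5, chr18:63476708-63476957, plus strand: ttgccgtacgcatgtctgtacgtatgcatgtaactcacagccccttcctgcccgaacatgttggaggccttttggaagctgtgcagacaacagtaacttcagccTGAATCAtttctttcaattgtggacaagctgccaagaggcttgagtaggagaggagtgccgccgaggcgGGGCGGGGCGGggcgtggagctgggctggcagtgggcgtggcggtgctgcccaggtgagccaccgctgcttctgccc
PLAUR, chr19:43670338-43670367, minus strand: atcacaactccaTGAGTCAgggccgagcca
The AP-1 motif began 146 bases before the start of SERPINB5 and 186 bases before that of PLAUR, counted from the starts that RefSeq gives. GENCODE, from which the gene positions given with the values come, starts PLAUR further upstream, so the printed stretch lies inside PLAUR as GENCODE annotates it. The whole PLAU window, chr10:73910360-73910609, likewise lies inside PLAU, which GENCODE starts at 73909177. The windows of MMP14 and TIMP1 end past their GENCODE starts. The GC boxes of SERPINB5 began 77 and 72 bases before its start, and its window held no exact match to the TATA box, the TEAD motif or the p53 half-site. The stretch gaacatgttg in that window fits the p53 half-site at every base but the last. How often promoters hold such near matches was not counted. The window of PLAUR held no match to the other 4 motifs. The window of MMP14 held 1 GC box and that of TIMP1 held 2. The window of PLAU, which is not upstream of the GENCODE start, held no match to any of the 5 motifs. These are matches of letters, and binding of a factor was not measured.

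The 6 libraries held between 32979521 and 40967880 counts, and the 10 most abundant genes took 5.69% to 6.09% of them. Of the 13727 genes that passed the filter on low counts, 381 were higher and 315 lower in OXA by edgeR's quasi-likelihood test at a Benjamini-Hochberg adjusted p under 0.05, which is 2.78% and 2.29% of them. The p53 targets CDKN1A, MDM2 and TP53I3, taken as a check of the treatment, were higher by 2.93, 2.22 and 2.83 on the log2 scale (edgeR adjusted p = 0.000445, 0.000445 and 0.00109). All 6 epithelial markers passed the filter, with a summed level of 1981 to 2666 CPM (counts scaled to a common library size) in NT and 2817 to 3160 in OXA. KRT8 and KRT18 weighed most in these sums. Their mean normalised counts were 39183 and 30144 in NT and 54403 and 37416 in OXA. EPCAM, the next highest, had 9963 in NT and 9690 in OXA. The log2 fold changes of KRT8, KRT18 and CDX2 were above 0, and those of EPCAM, CDH1 and VIL1 were below it. VIL1 was low, with 39 to 95 raw counts per library. With the replicate block KRT8 and KRT18 were called higher and CDH1 lower (edgeR adjusted p = 0.0271, 0.0184 and 0.0408), and 0 of the 6 were called without it. The 6 fibroblast markers summed to 3.35 to 8.38 CPM in NT and 5.05 to 8.55 in OXA, of which COL1A1, with 107 to 273 raw counts per library, was the 1 that passed the filter. COL1A2, COL3A1 and PDGFRB had at most 18 raw counts in a library, and DCN and LUM had 0 in each. Of the 3 endothelial markers VWF passed the filter, with 13 to 29 raw counts, and of the 3 leukocyte markers CD68, with 152 to 237. Library NT1 stood apart from the other NT libraries, with a chi-square per gene of 83.6 against NT2 and 76.1 against NT3, compared with 21.3 between NT2 and NT3. Each result of the 9 genes is therefore also given without NT1 where its call or direction changed. For the related lists only the number of genes called without NT1 is given. NT and OXA libraries of the same number deviated alike from their group means, and a second fit that used this number as a replicate block is also given where it changed a call.

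Of the 9 genes, 7 passed the filter and were tested. SERPINB5 and PLAU rose after oxaliplatin, PLAUR was higher in every OXA library but did not pass the test, and PLAT, MMP14, TIMP1 and TIMP2 did not pass it. MMP1 and MMP2 were too low to be tested. Thus 2 of 7 tested genes were called, both higher in OXA, where 5.07% of all tested genes were called in either direction and 2.78% were called higher. At an unadjusted p under 0.05, 3 of the 7 passed, against 21.7% of all tested genes. In the fit with the replicate block 3 of 7 were called, all higher, where 23.0% of all tested genes were called, 12.1% higher and 10.9% lower. DESeq2 also called 3 of them, all higher, against 8.56% of its tested genes in either direction, 4.43% higher and 4.13% lower. The median log2 fold change of the 7 genes was 0.18, beside 0.02 over all tested genes. In bulk RNA a larger share of cells with a transcript and more of it per cell cannot be told apart.

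**Figure D1:**
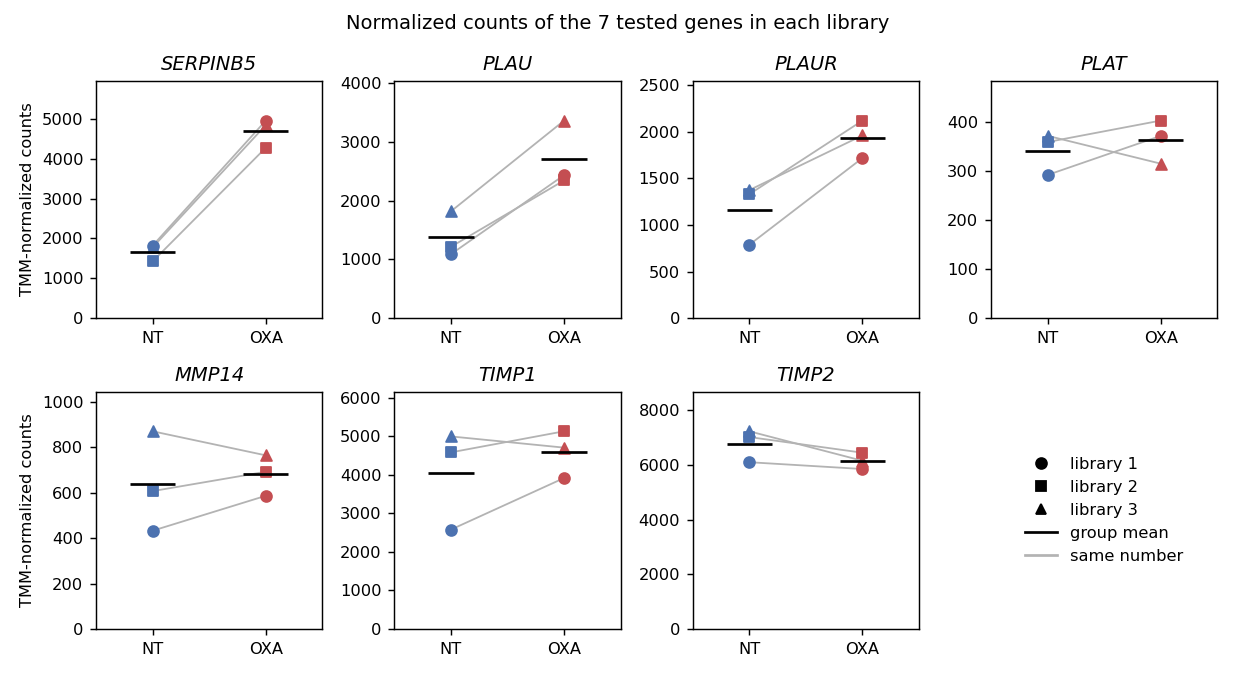
TMM-normalised counts (vertical axes, linear, from 0) of the 7 tested genes in each NT and OXA library, with 1 symbol shape per replicate number, grey lines joining libraries of the same number and a bar at the group mean (n = 3). The OXA points lie above every NT point for SERPINB5, PLAU and PLAUR, and the groups overlap for PLAT, MMP14, TIMP1 and TIMP2.

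SERPINB5 (ENSG00000206075, GRCh38 chromosome 18, 63476958 to 63505085, plus strand) had normalised counts of 1818, 1424 and 1774 in NT1, NT2 and NT3. In OXA1, OXA2 and OXA3 they were 4959, 4278 and 4846. Every OXA library was thus far above every NT library, and the libraries of a group lay close together, with a coefficient of variation of 12.9% in NT and 7.77% in OXA. The group means were 1672 ± 216 and 4694 ± 365 (SD, n = 3), a ratio of 2.81. The log2 fold change was 1.49 (SE 0.12, 95% interval 1.21 to 1.77, edgeR adjusted p = 0.00218). It was 1.45, 1.59 and 1.45 within the same-numbered pairs 1, 2 and 3. Of all tested genes, 0.634% had a log2 fold change at least as large.

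The call of SERPINB5 held in each of the 11 other settings, and its log2 fold change lay between 1.35 and 1.55 when any library was left out (edgeR adjusted p from 0.000405 to 0.0225). With the replicate block it was 1.49 (SE 0.056, edgeR adjusted p = 0.000636). The genes whose pattern over the 6 libraries was most like that of SERPINB5 were FAS, a death receptor, SESN1, a sestrin, and TP53INP1, a p53-induced nuclear protein. Their root mean square differences from it, on gene-centred log2 CPM, were 0.061, 0.072 and 0.077, where the median over 12065 genes was 0.771. FAS went from 582, 474 and 608 normalised counts in NT to 1775, 1426 and 1752 in OXA. SESN1 went from 764, 625 and 718 to 2117, 1714 and 1822, and TP53INP1 from 1001, 863 and 1102 to 3166, 2767 and 3070. In each of the 3 genes, as in SERPINB5, the second library was the lowest of its group. The genes were picked for likeness over these same libraries, so this shared order follows from the choice.

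SERPINB5 lies in a cluster of clade B serpins, and 14 other genes of the table lie within 500 kb of it. Of these neighbours, 8 were serpins with fewer than 10 counts in each library (SERPINB12, SERPINB13, SERPINB4, SERPINB11, SERPINB3, SERPINB7, SERPINB2 and SERPINB10), SERPINB2 being also in the plasminogen system. SERPINB13 and SERPINB3 had 0 counts in all 6 libraries. The other 6 neighbours were tested, and 1 was called, where 5.07% of all tested genes were called and 2.29% were called lower. With the replicate block 2 were called, both lower, where 23.0% and 10.9% were. PHLPP1, the gene of a phosphatase acting on AKT, fell by 0.48 on the log2 scale (SE 0.092, edgeR adjusted p = 0.0298). BCL2, the survival gene, was at -0.48 on the same scale (edgeR adjusted p = 0.123, and 0.0497 with the replicate block). SERPINB8, the other tested serpin of the cluster, had 281 ± 48.5 normalised counts in NT and 358 ± 21.8 in OXA (SD, n = 3), which is 0.35 on the log2 scale (SE 0.16, edgeR adjusted p = 0.266). VPS4B, KDSR and HMSD were at -0.0083, -0.13 and -0.40 (edgeR adjusted p = 0.976, 0.520 and 0.338). No neighbour was called higher in either fit, where 2.78% and 12.1% of all tested genes were.

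**Figure D2:**
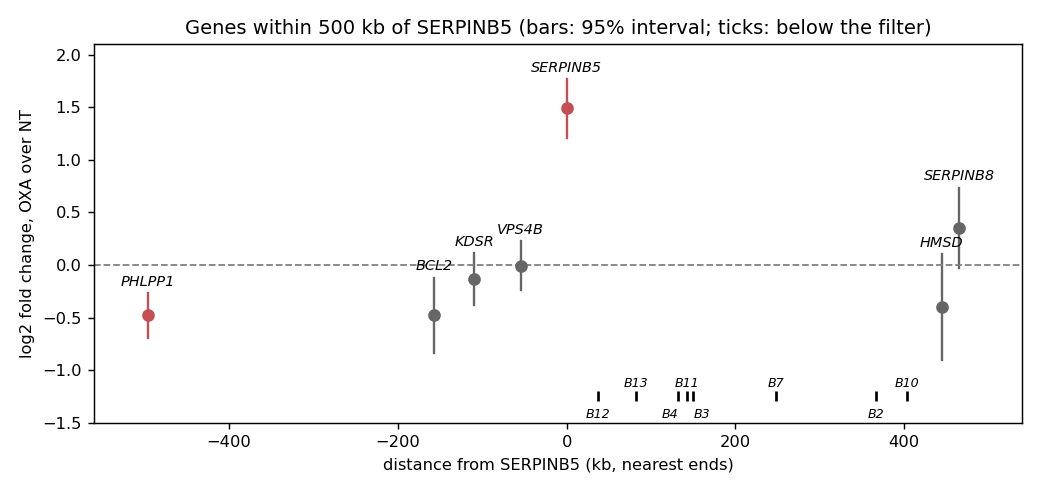
Log2 fold change of OXA over NT (vertical axis) of SERPINB5 and of the 6 tested genes within 500 kb, against their distance from SERPINB5 in kb (horizontal axis, between the nearest ends). Bars are 95% intervals, red marks genes called by edgeR, and ticks at the bottom mark the 8 serpins below the filter, labelled without SERPIN. SERPINB5 stands at 1.49, and the called PHLPP1 at -0.48.

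PLAU (ENSG00000122861, chromosome 10, 73909177 to 73917496, plus strand), which encodes urokinase, had normalised counts of 1089, 1215 and 1818 in NT1, NT2 and NT3. In OXA1, OXA2 and OXA3 they were 2436, 2345 and 3364. The lowest OXA library was above the highest NT library, and library 3 was the highest of both groups. The means were 1374 ± 390 and 2715 ± 564 (SD, n = 3), a ratio of 1.98. The log2 fold change was 0.98 (SE 0.22, 95% interval 0.47 to 1.49, edgeR adjusted p = 0.0483), so PLAU passed the threshold by a small margin. Of all tested genes, 1.87% had a log2 fold change at least as large.

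Within the same-numbered pairs the log2 change of PLAU was 1.16, 0.95 and 0.89. With the replicate block the estimate was 1.00 (SE 0.072) and the edgeR adjusted p was 0.00174. Without the block the call rested on single libraries: it was lost without NT2, OXA1, OXA2 or OXA3, with log2 fold changes of 0.87, 1.06, 1.08 and 0.77 (edgeR adjusted p = 0.123, 0.139, 0.111 and 0.156). It was kept without NT1 or NT3 (edgeR adjusted p = 0.0349 and 0.0459). The antisense gene C10orf55 overlaps PLAU and had 6 to 12 counts per library, far fewer than PLAU, and the strand setting of the counting is not given in the sources used here. The genes most like PLAU in pattern were ALDH1A3, a retinal dehydrogenase, TAP1, a peptide transporter of antigen presentation, and ABHD4, a lipase. Their root mean square differences from it were 0.124, 0.130 and 0.131, where the median over all genes compared was 0.582. ALDH1A3 had 8172, 8073 and 10610.0 normalised counts in NT and 16020.0, 14992 and 19568 in OXA, with library 3 the highest of each group as in PLAU. Here too the shared order follows from the choice by likeness.

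PLAUR (ENSG00000011422, chromosome 19, 43646095 to 43670547, minus strand), the urokinase receptor gene, had normalised counts of 786, 1328 and 1373 in NT1, NT2 and NT3. In OXA1, OXA2 and OXA3 they were 1717, 2118 and 1959. The groups did not overlap, but NT1 was far below the other NT libraries. The means were 1162 ± 327 and 1932 ± 202 (SD, n = 3), and the log2 fold change of 0.73 (SE 0.21, 95% interval 0.25 to 1.22) did not pass the test (edgeR adjusted p = 0.0908). With the replicate block PLAUR was called, at 0.77 (SE 0.12, edgeR adjusted p = 0.0118), and the changes within pairs were 1.13, 0.67 and 0.51. Without NT1 the difference was smaller and was called, at 0.52 (edgeR adjusted p = 0.0251). DESeq2 also called it, at 0.73 (DESeq2 adjusted p = 0.00836).

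SERPINB5, PLAU and PLAUR were thus the 3 genes of the 9 whose OXA libraries all lay above the NT libraries, a pattern shown by 14.5% of all tested genes. NT1 was the lowest NT library in 6 of the 7 tested genes, SERPINB5 being the exception, and in 43.0% of all tested genes. The coefficient of variation in NT was 28.1% for PLAUR, and 19.7% of all tested genes had a larger one.

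PLAT (ENSG00000104368, chromosome 8, 42174718 to 42207709, minus strand), which encodes tissue plasminogen activator, had normalised counts of 292, 360 and 372 in NT and 372, 403 and 315 in OXA, in the order of the libraries. The groups overlapped, with NT1 the lowest and OXA2 the highest of the 6 libraries. The log2 fold change was 0.090 (SE 0.16, 95% interval -0.28 to 0.46, edgeR adjusted p = 0.797), and it was -0.011 without NT1. The upper bound of this interval lay just below the lower bound of 0.47 for PLAU, the other plasminogen activator. The ratio of PLAU to PLAT, chosen after the values were seen, was 3.99 ± 0.788 in NT and 7.67 ± 2.62 in OXA (SD, n = 3). Its log2 difference of 0.91 had an exact permutation p = 0.1, the lowest that 3 libraries per group allow. The ratios of TIMP1 to TIMP2, MMP14 to TIMP2 and PLAUR to PLAU were also taken after the values were seen. In these the groups overlapped (exact permutation p = 0.2, 0.3 and 0.4). The ratio of PLAU to PLAT was picked with the changes of both genes known, so its p-value adds no separate evidence.

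**Figure D3:**
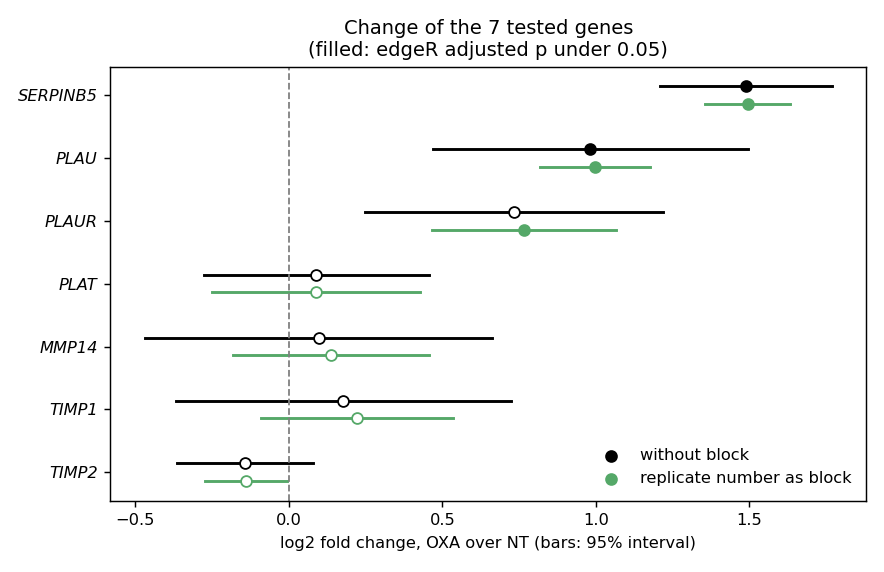
Log2 fold change of OXA over NT (horizontal axis) with its 95% interval for the 7 tested genes in the fit without the replicate block (black) and with it (green), filled where the edgeR adjusted p is under 0.05. SERPINB5 and PLAU are filled in both fits and PLAUR in the fit with the block. The intervals of PLAT, MMP14 and TIMP1 include 0 in both fits. That of TIMP2 includes 0 without the block and lies just below 0 with it (-0.27 to -0.0051), where TIMP2 is not called.

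Among the metalloproteinase genes, MMP14 (ENSG00000157227, chromosome 14, 22836560 to 22849041, plus strand) was the only one of the 3 to pass the filter. Its normalised counts were 432, 607 and 871 in NT and 586, 692 and 764 in OXA. NT1 was the lowest and NT3 the highest of the 6 libraries, so the NT group spanned the whole OXA group. The log2 fold change was 0.097 (SE 0.24, 95% interval -0.47 to 0.66, edgeR adjusted p = 0.862), and its sign turned without NT1 (-0.12), without OXA3 (-0.022) and with the authors' normalisation factors (-0.056).

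MMP1 (ENSG00000196611, chromosome 11, 102789401 to 102798160, minus strand) had raw counts of 1, 0 and 4 in NT and 3, 0 and 2 in OXA. MMP2 (ENSG00000087245, chromosome 16, 55389700 to 55506691, plus strand) had 2, 0 and 0 in NT and 0, 1 and 0 in OXA. These lie at or near the floor of 3 counts, which is 0.0732 to 0.0910 CPM depending on the library, and the floor covers counting error alone. No fold change is given, since a difference was not detectable at this depth. Of the 20 other matrix metalloproteinase genes of the table, 9 passed the filter and 4 had no count in any library. Of those 9, 0 were called by edgeR in either fit or by DESeq2. At an unadjusted p under 0.05 there were 0, where 21.7% of all tested genes passed. MMP15, a membrane-anchored enzyme like MMP14, was the most abundant of them per length, at 21.6 ± 8.72 CPM per kb in NT and 19.0 ± 3.72 in OXA (SD, n = 3). MMP7, the matrilysin of intestinal epithelium, had 18 to 37 raw counts in NT and 25 to 38 in OXA. MMP9, the other gelatinase, had 4 to 15 in NT and 9 to 27 in OXA.

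The metalloproteinase inhibitors were the most abundant of the 9 genes per length in NT. TIMP1 (ENSG00000102265, chromosome X, 47582408 to 47586789, plus strand) had normalised counts of 2575, 4579 and 4993 in NT and 3915, 5127 and 4702 in OXA. Apart from a low NT1, the libraries of both groups lay in the same range. The log2 fold change was 0.18 (SE 0.23, edgeR adjusted p = 0.718), and it was -0.063 without NT1. The antisense gene SYN1, which overlaps TIMP1, had 40 to 70 raw counts per library.

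TIMP2 (ENSG00000035862, chromosome 17, 78852977 to 78925387, minus strand), which besides inhibiting MMP2 takes part in its activation by MMP14, had normalised counts of 6095, 7015 and 7226 in NT. In OXA they were 5846, 6442 and 6147. The OXA value was the lower one in 3 of 3 pairs, by at most 0.23 on the log2 scale, though the groups overlapped. The log2 fold change was -0.14 (SE 0.096, edgeR adjusted p = 0.448, and 0.119 with the replicate block). TIMP2 was the only tested gene of the 9 with an estimate below 0, and it had the smallest spread, with a coefficient of variation of 8.87% in NT and 4.85% in OXA.

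Levels of different genes were compared as CPM per kb of mean transcript length. In NT the order was TIMP1 (164 ± 52.4), TIMP2 (72.4 ± 6.42), SERPINB5 (47.4 ± 6.13), PLAUR (37.8 ± 10.6), PLAU (29.9 ± 8.49), MMP14 (9.46 ± 3.28) and PLAT (4.75 ± 0.598), followed by MMP1 (0.0255) and MMP2 (0.0111). The ranges over the 3 libraries overlapped between SERPINB5 and PLAUR, between PLAUR and PLAU, and between MMP1 and MMP2, and were separate between the other neighbours in that order. In OXA, SERPINB5 at 133 ± 10.3 stood second, above TIMP2 at 65.6 ± 3.18 and below TIMP1 at 186 ± 24.9 (SD, n = 3), with ranges separate from both. PLAUR at 62.9 ± 6.58 and PLAU at 59.1 ± 12.3 followed, and their ranges overlapped with each other, and TIMP2 overlapped with PLAUR. With the longest transcript as the length, PLAUR stood above SERPINB5 and PLAU in NT, so the order of these 3 in NT depended on the length used. On that scale SERPINB5 in OXA was at 50.5 ± 3.92 and TIMP2 at 46.8 ± 2.27 (SD, n = 3), a difference smaller than the SD of SERPINB5, so its place above TIMP2 depended on the length too.

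**Figure D4:**
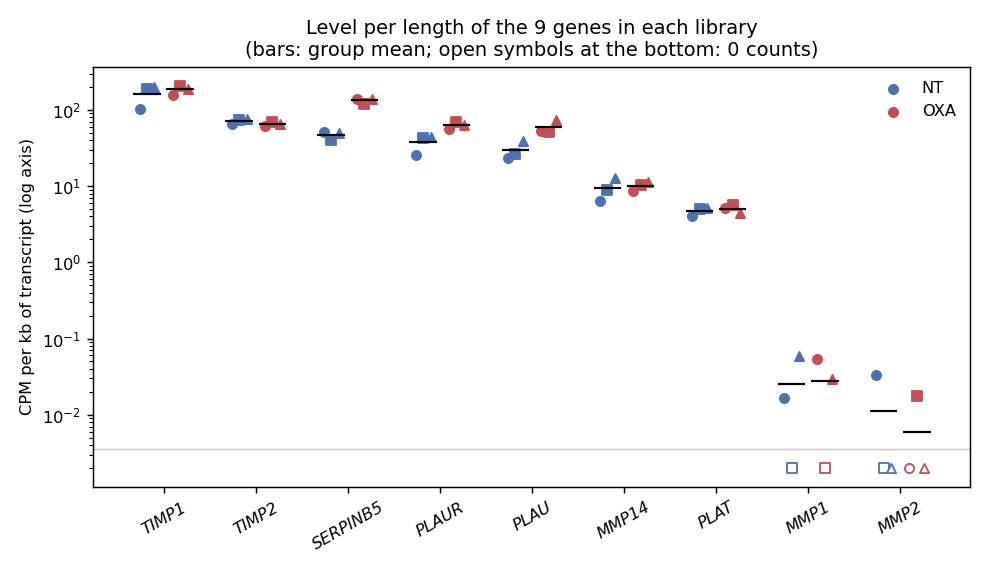
Level of the 9 genes in CPM per kb of mean transcript length (vertical axis, logarithmic) in each NT and OXA library, with a bar at the group mean (n = 3) and open symbols at the bottom for libraries with 0 counts. In OXA, SERPINB5 lies between TIMP1 and TIMP2, while MMP1 and MMP2 lie far below the other 7 genes in both groups.

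Of 14 further plasminogen system genes of the table that are reported here, 9 passed the filter. Without the block edgeR called 0 of them, where 5.07% of all tested genes were called, and 4 had an unadjusted p under 0.05, where 21.7% did. DESeq2 called 1 of them, S100A10 (0.57, DESeq2 adjusted p = 0.0382), where it called 8.56% of its tested genes. The median log2 fold change of the 9 was 0.27, beside 0.02 over all tested genes. PLG, the plasminogen gene itself, had 0 counts in all 6 libraries.

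With the replicate block, 3 of these 9 genes were called higher and 1 lower, where 12.1% and 10.9% of all tested genes were. The higher ones were S100A10, ENO1 and LRP1, at 0.59, 0.28 and 0.82 (edgeR adjusted p = 0.00330, 0.0386 and 0.0352). S100A10 and ENO1 encode cell surface plasminogen receptors, and LRP1 an endocytic receptor that takes up inhibited urokinase from the cell surface. SERPINE2, the gene of protease nexin 1, an inhibitor of urokinase, fell by 0.26 (edgeR adjusted p = 0.0239). ENO1, which is also a glycolytic enzyme, was the most abundant of the 9 per length, at 2893 ± 373 CPM per kb in NT and 3491 ± 108 in OXA (SD, n = 3).

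Without the block, edgeR called 0 genes in the other related lists, where 5.07% of all tested genes were called. At an unadjusted p under 0.05 there were 2 of 11 tested cathepsins and cystatins, 1 of 4 metalloproteinase regulators and 1 of 4 clade B serpins. There were also 1 of 7 ADAM and ADAMTS genes and 0 of 5 membrane serine proteases and Kunitz inhibitors. Of all tested genes, 21.7% passed at that threshold. DESeq2 called CTSH and ADAM19 in these lists, both lower, where it called 8.56% of its tested genes, 4.13% of them lower. In the fit with the block, 2 of 4 tested metalloproteinase regulators besides the TIMP members were called, both lower, where 23.0% of all tested genes were called and 10.9% were called lower. TIMP3 fell by 0.47 and RECK, a membrane-anchored inhibitor of MMP14 and MMP9, by 0.46 (edgeR adjusted p = 0.0398 and 0.0436). BSG, which encodes the metalloproteinase inducer basigin and was the most abundant of that list, had 200 ± 83.2 CPM per kb in NT and 265 ± 53.9 in OXA (SD, n = 3). Of 4 other tested clade B serpins, 1 was called with the block, where 10.9% of all tested genes were called lower. That gene was SERPINB9, the granzyme B inhibitor, which fell by 0.27 (edgeR adjusted p = 0.0231 with the block). SERPINB1, an inhibitor of neutrophil proteases, was the most abundant of these serpins, at 58.2 ± 8.79 CPM per kb in NT and 54.6 ± 3.28 in OXA. SERPINB5 was the only clade B serpin called higher in either fit.

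Among 11 tested cathepsin and cystatin genes, the block fit called 2 higher and 1 lower, a share near the 23.0% of all tested genes. Those higher were LGMN, which encodes legumain, at 0.27, and CST6, which encodes its inhibitor cystatin M, at 0.67, and the lower one was CTSH, cathepsin H, at -0.41 (edgeR adjusted p = 0.0312, 0.0231 and 0.0153). CTSB, cathepsin B, was the most abundant of them, at 130 ± 18.5 CPM per kb in NT and 116 ± 5.32 in OXA (SD, n = 3). Of 7 tested ADAM and ADAMTS genes, 1 was called with the block, where 10.9% of all tested genes were called lower. That gene was ADAM19, which fell by 0.41 (edgeR adjusted p = 0.00701). ADAM10, a general sheddase, had the highest mean at 110 ± 8.14 and 105 ± 8.02 CPM per kb of mean transcript length. With the longest transcript as the length, ADAM9 had the highest mean, at 53.9 in NT, so that place depended on the length. Of 5 tested membrane serine proteases and Kunitz inhibitors, 0 were called by edgeR in either fit or by DESeq2. Over all tested genes these calls took 5.07% without the block, 23.0% with it and 8.56% in DESeq2. SPINT2, an inhibitor of hepatocyte growth factor activator, was the most abundant of the 5 at 234 ± 45.2 and 270 ± 16.7 CPM per kb.

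**Figure D5:**
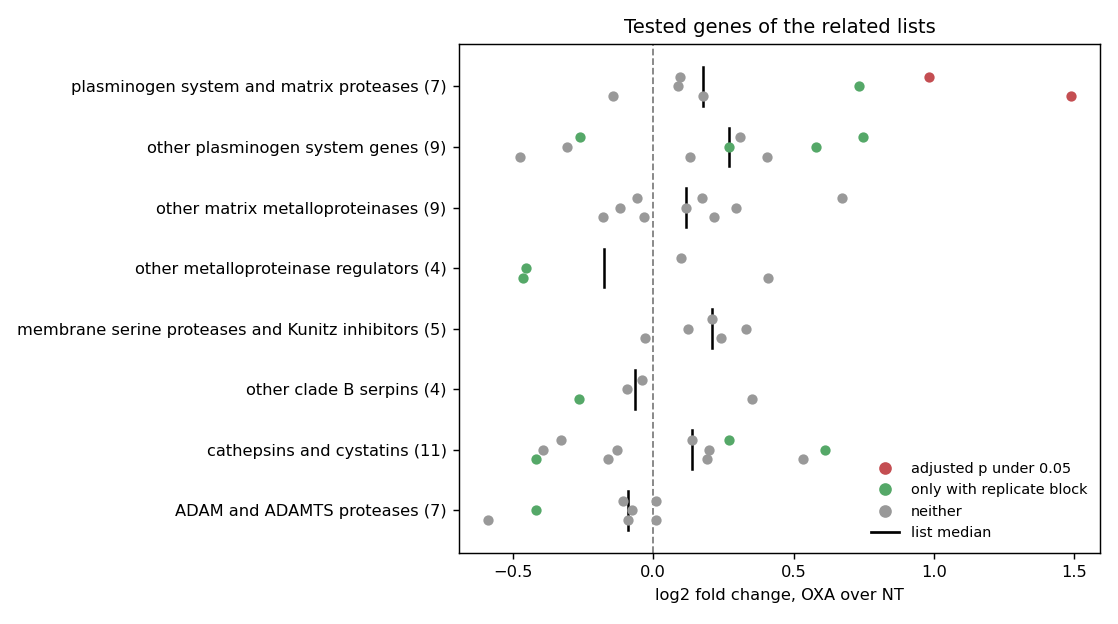
Log2 fold change of OXA over NT (horizontal axis, fit without the block) of each tested gene of the 9 and of the 7 related lists (rows, with the number tested), with a bar at the median of each row; red marks genes called without the block and green those called with it alone. SERPINB5 and PLAU are the red points, and the medians of the rows lie between -0.18 and 0.27.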

How the data were processed

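Polyadenylated RNA of HCT116 cells was sequenced in 3 NT and 3 OXA libraries as paired reads of 100 nt. The paper's methods give mapping to GRCh38 with STAR 2.7.5b and normalisation with DESeq2 2.13, and the submitters' processing notes also name Trimmomatic 0.32 and RSEM 1.3.3. The counting setting, strand and annotation are not given in the sources used here. The authors deposited a raw count per gene and library, which was a whole number and was used as deposited. The authors also deposited a normalised signal, the raw count times a factor that differed between genes and libraries, which was used for an alternative.

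Genes were filtered with filterByExpr (minimum count 10, minimum total 15), which left 13727 of 27942, normalised by TMM and tested in R 4.3.3 with the quasi-likelihood test of edgeR 4.0.16. p-values were adjusted over all 13727 genes by the Benjamini-Hochberg method, with a threshold of 0.05. Alternatives used limma 3.58.1 and DESeq2 1.42.0. Normalised counts are TMM counts scaled to the mean library size. Gene positions and transcript lengths came from GENCODE release 44. The edgeR fits with and without the block were also run on simulated counts, and the outcome is not given here. In that simulation all genes shared the same dispersion and no library stood apart, whereas NT1 did so in these data. Neither the labels nor the paper say what a replicate number stands for, or that replicates came from separate cultures, so p-values measure the spread between these libraries, which may be technical. Deviations from the group means correlated at 0.55, 0.54 and 0.31 between same-numbered libraries and at -0.47 to 0.090 between others, so the numbers were taken to pair the libraries. Such deviations cancel out within a group, so high values between same-numbered libraries bring low ones between others. The calls with the block rest on this pairing, which was judged on the same data. No 2 libraries agreed within sampling noise.

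Named were the 9 genes, genes of the related lists called with or without the block, the most abundant gene per length of each list, genes within 500 kb of SERPINB5, and the 3 genes most like each called gene (mean of at least 50 normalised counts). MMP7 and MMP9 were added after their values were seen. The 9 genes and all lists were chosen with earlier results of these data known. MRC2, of the plasminogen list, was not analysed here, and 1 other gene of that list is not reported here. The alternatives were other scaling factors (RLE, upper quartile, the authors' factors), no filter or a stricter one, DESeq2, limma-voom, a robust fit, leaving out each library, and the replicate block. The newer edgeR method and the block combined with the authors' factors were added after seeing the data.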

Additional observations from a re-analysis of the deposited data

How the results depend on the processing

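Leaving out 1 library moved the number of the 9 genes called to between 1 and 3, the number of related genes called, 0 with every library, to between 0 and 3 (3 without NT1), and the number over all genes, 696 with every library, to between 85 and 1194, the highest without NT1 and the lowest without OXA1. Over those fits PLAU ranged from 0.77 to 1.21 on the log2 scale and PLAUR from 0.52 to 0.84, and the sign of PLAT (-0.011 to 0.15), MMP14 (-0.12 to 0.36) and TIMP1 (-0.063 to 0.33) turned. PLAT turned to -0.011, TIMP1 to -0.063 and MMP14 to -0.12 without NT1, and MMP14 to -0.022 without OXA3. PLAU was not called in the robust fit (0.98, edgeR adjusted p = 0.0560) or with the authors' factors (0.92, edgeR adjusted p = 0.0868), and each of these settings left 1 of the 9 genes called. With the authors' factors MMP14 was at -0.056 and 441 genes were called. DESeq2 called 1175 genes, 3 of them in the related lists, and PLAUR (0.73). The cause of these differences was not tested.

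The replicate block called 3157 genes, 11 of them in the related lists, and PLAUR (0.77), and changed no other call among the 9. Combined with the authors' factors, it called 2484 genes, 7 of them in the related lists, and PLAUR (0.72), with MMP14 at -0.031. With 3 libraries per group, differences of PLAT, MMP14 and TIMP1 within their intervals were not detectable, and MMP1 and MMP2 were too shallow to test.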
